A study of Rattus norvegicus with 12 samples.

Results

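In rat cells given an siRNA against NRF2, 119 genes were lower in pulmonary artery smooth muscle cells (PASMC) and higher in pulmonary artery endothelial cells (PAEC) than with a control siRNA, out of 10559 genes on chromosomes 1 to 20 that passed a minimum level and 32883 genes in the count table. They were chosen by these same values. A gene had a mean of at least 2 CPM (counts per 1000000 counts of the library) in siControl of both cell types, a siNRF2 to siControl ratio of mean CPM of at most 0.77 in PASMC and at least 1.3 in PAEC, and no overlap between the siNRF2 and siControl libraries in either cell type. Of the genes past the minimum, 29.1% had all siNRF2 libraries below all siControl libraries in PASMC, and 17.2% had them above in PAEC. The opposite changes and their sizes within a cell type are therefore a description of how the genes were picked. The measures that the choice did not use are the genes' structure and position, the cell type difference averaged over the siRNAs and the behaviour of the genes next to them.

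Primary cells from wild-type rat lung were used, and RNA was sequenced in bulk from 3 libraries in each of 4 groups: PASMC siNRF2, PASMC siControl, PAEC siNRF2 and PAEC siControl. siNRF2 marks cells given an Nrf2 siRNA, meant to lower Nrf2 mRNA by RNA interference, and siControl marks those given a control siRNA. Each cell type was grown in its own medium, so cell type and medium cannot be told apart. The sources used here give neither the time after transfection, nor the animals' age, nor whether libraries came from separate animals, and p-values measure the spread between these libraries. In bulk RNA, fewer cells of a type and less RNA per cell cannot be told apart either.

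NRF2 is a transcription factor that is held low by KEAP1-directed degradation and accumulates under oxidative stress. It pairs with small MAF proteins at antioxidant response elements and drives genes for glutathione synthesis, quinone reduction and iron handling. Smooth muscle cells set the tone and thickness of the pulmonary artery wall, while endothelial cells line it and face the blood, and oxidant stress in both is known from pulmonary hypertension.

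The table names genes by Ensembl ID, and 0 of the 119 IDs matched a symbol or a promoter sequence in the RefSeq tables used here (GRCr8). The roles of these genes, the NRF2 target lists, the cell type markers and the siRNA target's own level were not analysed here. The cell type label reads PASMC for every sample, so titles set the cell type. The column names were read as cell type, siRNA and replicate from their letters, an inference on which every direction rests. Library totals ran from 27008812 to 34317763 counts. A member had a median of 621.5 counts in a library. The lowest value was 37 counts, and 21 members had a library with under 100 counts.

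Most of the changes were small. The median ratio of mean CPM was 0.686 in PASMC, with quartiles of 0.639 and 0.734, and 1.44 in PAEC, with quartiles of 1.36 and 1.56. The PASMC change was the larger of the pair in 64 genes and the PAEC change in 55. At least 2-fold was reached by 8 genes in PASMC, by 5 in PAEC and by 1 in both, and 22 genes reached 1.5-fold in both. The rule in PASMC alone was met by 17.0% of the genes past the minimum, the rule in PAEC alone by 8.11%, and both together by 1.13%. The same rule with the directions turned round, higher in PASMC and lower in PAEC, was met by 211 genes.

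**Figure D1:**
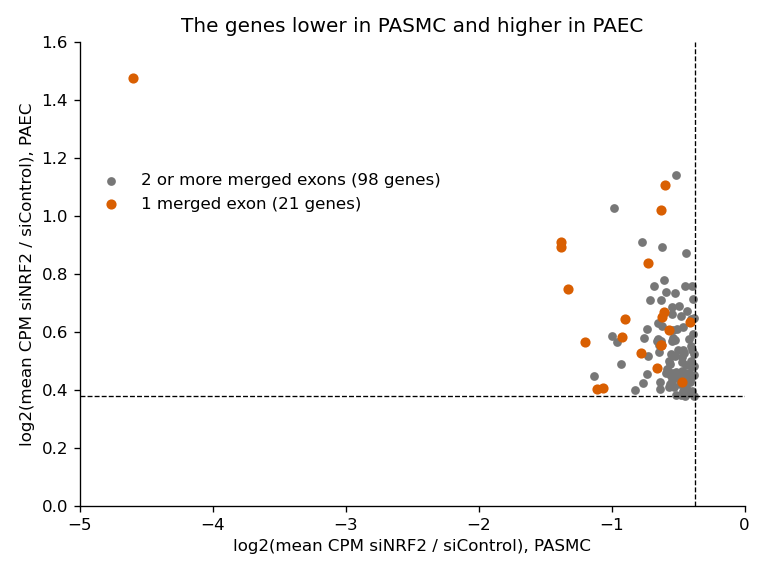
Each point is 1 of the 119 genes, with log2 of the ratio of mean CPM (siNRF2 over siControl) in PASMC on the x axis and in PAEC on the y axis, dashed lines at the limits of the rule (0.77 and 1.3), and orange for the 21 genes with 1 merged exon. Most genes crowd at the limits, and 1 gene stands far to the left at -4.60 in PASMC and 1.48 in PAEC.

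The limits cut through a continuous spread of values. Just inside, a gene on chromosome 2 at 148722231 to 148755520 had 51.2 CPM in PASMC siNRF2 against 66.7 in siControl (ratio 0.768) and 88.6 CPM in PAEC siNRF2 against 68.1 in siControl (ratio 1.301). Genes on chromosome 16 at 7080454 to 7082193 (ratios 0.733 and 1.301) and on chromosome 15 at 104235678 to 104394322 (0.768 and 1.57) were also just inside. Just outside were genes on chromosome 5 at 122641885 to 122693635 (0.770001 and 1.303), on chromosome 2 at 189655702 to 189733540 (0.772 and 1.299) and on chromosome 2 at 166402838 to 166428331 (0.735 and 1.296). Both ratios were past the limits in 172 genes, of which 26 overlapped between siRNAs in PASMC, 40 in PAEC and 13 in both.

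The gene with the largest change in both cell types was ENSRNOG00000049105 (chromosome 10, 70109549 to 70109623, plus strand), whose single annotated exon is 0.075 kb long and overlaps the span of a gene on the other strand. It had 3.56, 1.46 and 2.52 CPM in PASMC siNRF2, against 50.6, 28.4 and 103.8 CPM in PASMC siControl. In PAEC it had 8.66, 9.27 and 18.5 CPM in siNRF2, against 4.94, 3.14 and 5.02 CPM in siControl, a change not called in the fit over all genes (adjusted p = 0.079, edgeR). The siControl libraries of PASMC were the highest of the 12 and differed among themselves by more than 3-fold, so the size of the PASMC change (log2 ratio -4.60) is loosely set, and its counts ran from 45 to 3556. Whether counting used strand is unknown from the sources used here, so reads of the gene on the other strand may be included.

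ENSRNOG00000026302 (chromosome 1, 225048149 to 225051696, plus strand, 2 merged exons) came next, with changes of about equal size in the cell types. It had 2.40, 1.52 and 1.5 CPM in PASMC siNRF2, against 4.18, 3.92 and 2.63 in PASMC siControl, a log2 ratio of -0.98. In PAEC it had 4.09, 5.46 and 3.96 CPM in siNRF2, against 1.64, 2.15 and 2.85 in siControl, a log2 ratio of 1.03. The highest PASMC siNRF2 library lay just under the lowest siControl library, and its counts were low, from 47 to 173 per library.

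ENSRNOG00000031127 (chromosome 8, 129371556 to 129371973, minus strand) has 1 merged exon of 0.418 kb. It had 3.86, 1.91 and 3.5 CPM in PASMC siNRF2, against 7.0, 9.17 and 8.02 in PASMC siControl. In PAEC it had 5.62, 7.98 and 5.04 CPM in siNRF2, against 2.13, 3.27 and 4.52 in siControl. The gap between the siRNAs was wide in PASMC and narrow in PAEC. ENSRNOG00000008516 (chromosome 5, 125345343 to 125345726, minus strand) also has 1 merged exon, of 0.384 kb. It had 14.9, 6.58 and 9.52 CPM in PASMC siNRF2, against 23.8, 17.5 and 39.2 in PASMC siControl. Its PAEC levels were 23.3, 38.5 and 51.3 CPM in siNRF2, against 19.6, 21.2 and 20.1 in siControl. Its PAEC siControl libraries were close together and its PAEC siNRF2 libraries were spread more than 2-fold. Its PAEC change was not called in the fit over all genes (adjusted p = 0.12, edgeR).

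**Figure D2:**
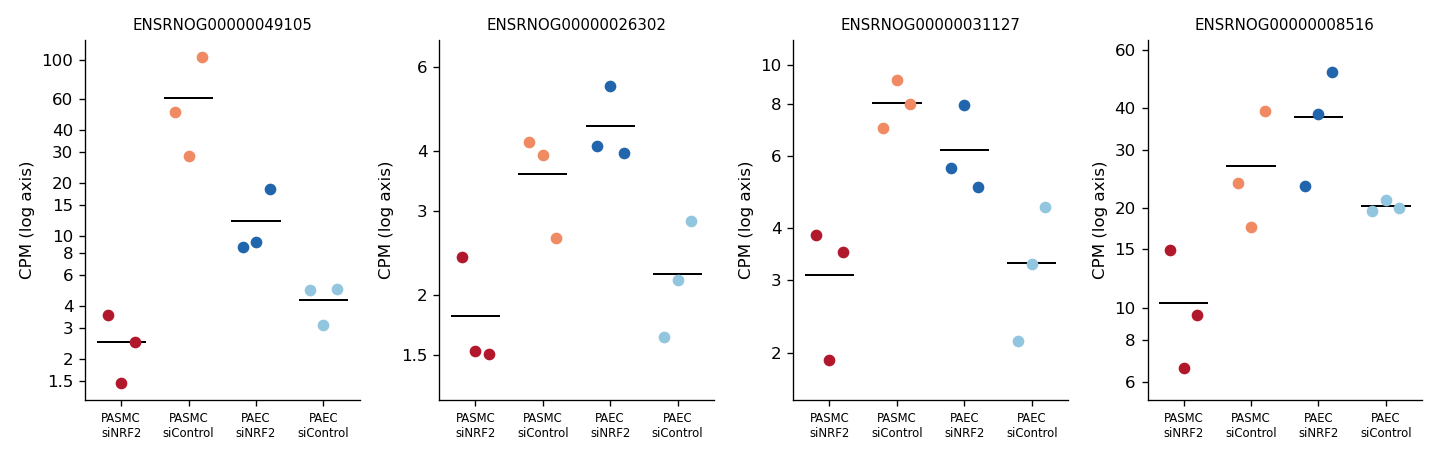
CPM in every library (points, log axis) of the 4 genes whose smaller change of the cell types was largest, by group, with the group mean as a bar. In each gene the PASMC siNRF2 points lie below the PASMC siControl points and the PAEC siNRF2 points above the PAEC siControl points, as the rule requires, with the widest spread in PASMC siControl of ENSRNOG00000049105 (28.4 to 103.8 CPM).

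Of the more abundant members, a gene on chromosome 2 at 189572176 to 189573280 had 174, 145 and 179 CPM in PASMC siNRF2, against 291, 286 and 245 in PASMC siControl. In PAEC it had 442, 475 and 445 CPM in siNRF2, against 255, 329 and 368 in siControl. It was the most abundant member in PAEC siNRF2. The most abundant in PASMC, on chromosome 17 at 27492220 to 27523912, averaged 274 ± 9.06 CPM in PASMC siNRF2 and 361 ± 28.4 in PASMC siControl, and 186 ± 10.7 CPM in PAEC siNRF2 and 128 ± 18.2 in PAEC siControl (mean ± SD, n = 3 each). Across the members, mean CPM ran from 1.77 to 274 in PASMC siNRF2 and from 3.37 to 361 in PASMC siControl, and from 3.30 to 454 in PAEC siNRF2 and from 2.02 to 318 in PAEC siControl. Averaged over all libraries, the median member was at 21 CPM, against 33.4 CPM for all genes past the minimum. Per kb of merged exon the levels were closer, at 12.4 and 13.6 CPM per kb.

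In a fit over all 14584 genes tested (edgeR, adjusted p under 0.05), 94 of the 119 genes were called lower in PASMC, where 14.6% of all genes tested were, and 102 were called higher in PAEC, where 11.5% were. The rule used these contrasts, so nothing is read from the counts, and 25 and 17 genes met the rule without a call. Both counts fell without some single libraries, as did the shares over all genes. The PASMC count was 57 without PASMC siNRF2 replicate 1, where 9.59% of all genes tested were called lower, and 58 without PASMC siControl replicate 2, where 10.1% were. The PAEC count was 74 without PAEC siControl replicate 1, where 8.68% of all genes tested were called higher, and 76 without replicate 2, where 7.57% were.

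The cell types were then compared over both siRNAs together, a difference that the siRNA contrasts do not enter. Of the 119 genes, 45 were higher in PAEC, 35 were higher in PASMC and 39 did not pass (edgeR's quasi-likelihood test, 6 libraries per cell type, adjusted p under 0.05). Over all genes tested, 30.7% were higher in PAEC and 32.4% lower, and over the genes past the CPM minimum 34.4% and 33.1%, so the members' shares of 37.8% and 29.4% were near the background in both directions. The median log2 difference of the members was 0.06, against -0.03 for all genes tested. With library totals in place of TMM scaling, which moved the median of all genes to -0.47, 22 members (18.5%) were higher in PAEC and 68 (57.1%) lower, where 15.4% and 59.3% of all genes tested were, again near the background. Differences of at least 2-fold were called for 14 of the 119 members higher and 5 lower in PAEC, where 11.2% and 12.5% of all genes tested were called. At this limit the members lower in PAEC were fewer than the background share. The minimum of 2 CPM in both cell types removes the genes most particular to either, which all genes tested include. Its part in the low number was not tested.

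**Figure D3:**
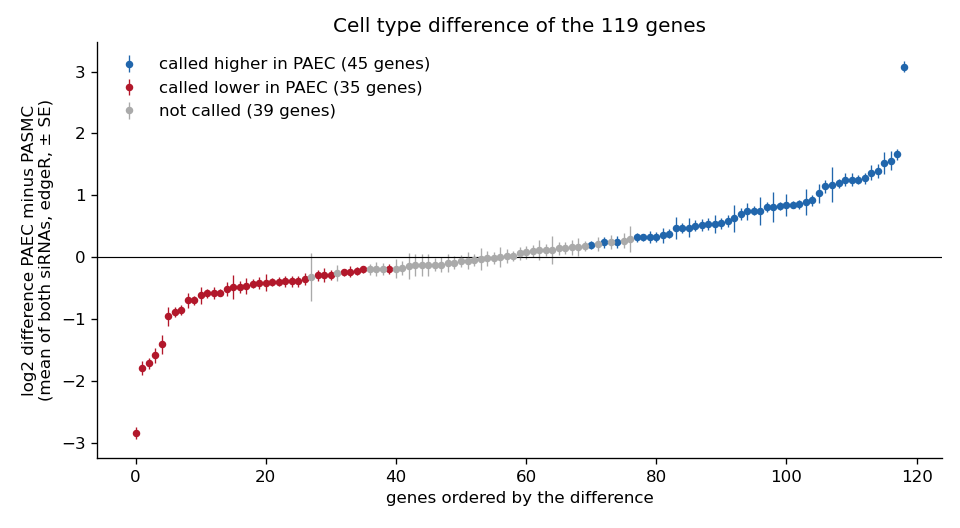
Log2 difference between PAEC and PASMC, averaged over the siRNAs, for each of the 119 genes in rising order, with its standard error from edgeR, in blue where called higher in PAEC (45 genes), red where called lower (35) and grey where not called (39). The values run from -2.84 to 3.08 and spread on both sides of 0.

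The member highest in PAEC relative to PASMC was on chromosome 2 at 45104305 to 45113131. It had 121, 120 and 125 CPM in PAEC siNRF2 and 82.8, 86.2 and 110 in PAEC siControl, against 14.8, 14.3 and 15.3 CPM in PASMC siNRF2 and 16.7, 22.7 and 19.9 in PASMC siControl. All 6 PAEC libraries lay far above all 6 PASMC libraries, a log2 difference of 3.08 (SE 0.089, adjusted p = 3.5e-16, edgeR). At the other end, a gene on chromosome 10 at 25861490 to 25890639 had 6.79, 5.39 and 8.54 CPM in PAEC siNRF2 and 4.01, 4.66 and 4.89 in PAEC siControl, against 43.7, 46.5 and 46.8 CPM in PASMC siNRF2 and 64.3, 67 and 63.4 in PASMC siControl. Its log2 difference was -2.84 (SE 0.10, adjusted p = 7.5e-15, edgeR). Of the 4 genes given by ID, ENSRNOG00000008516 was higher in PAEC by 1.17 (SE 0.28, adjusted p = 0.0049, edgeR) and ENSRNOG00000026302 by 0.75 (SE 0.23, adjusted p = 0.0071, edgeR; adjusted p = 0.22 with library totals). ENSRNOG00000031127, at 0.30 (SE 0.21, adjusted p = 0.23, edgeR; -0.14 with library totals), and ENSRNOG00000049105, at -0.32 (SE 0.39, adjusted p = 0.50, edgeR), did not pass.

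The opposite changes moved the order of the cell types in most members. By CPM of TMM-scaled libraries, 76 of the 119 genes had a higher mean in PAEC under siNRF2 and a higher mean in PASMC under siControl. A further 27 were higher in PAEC under both siRNAs and 16 higher in PASMC under both. The median ratio of PAEC to PASMC was 1.57 under siNRF2 and 0.692 under siControl. Over the 10559 genes past the minimum, the counts in the same order were 1516, 3860 and 3663, and 1520 switched the other way. Both median ratios there were 1.01. With library totals the members' counts were 64, 13 and 42, and their median ratios 1.16 and 0.513. Over all genes past the minimum they were then 878, 1741 and 6947, with 993 switching the other way, and 0.745 and 0.746. The shift between siRNAs follows from the rule, and the order under each siRNA depends on the scaling.

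Single-exon genes were frequent among the members. Of the 119, 21 (17.6%) had 1 merged exon (overlapping exons joined), where 3.95% of the genes past the minimum did (Clopper-Pearson 95% interval of the members' share 11.3 to 25.7%). The share was 8.53% among the 211 genes with the opposite pattern, 2.38% among the 378 lower in both cell types and 5.65% among the 177 higher in both. Ranked by the smaller of the PASMC and PAEC changes, the first 12 members included 6 with 1 merged exon, and the 22 that reached 1.5-fold in both cell types included 10. The ranking and the 1.5-fold limit use the ratios of the rule, so nothing further is read from these 2 counts. Single-exon genes as a whole did not lean this way, with median fitted log2 changes over 417 genes of 0.02 (PASMC) and -0.01 (PAEC). In the comparison of cell types, 11 of the 21 single-exon members were higher in PAEC and 1 was lower, where 41.2% and 24.2% of all single-exon genes past the minimum were.

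Many of these genes were short. Merged exons of under 0.5 kb were found in 19 members, that is in 7.12% of the 267 such genes past the minimum against 0.972% of the 10292 longer ones. The opposite pattern was also more frequent among the short genes, at 4.12% against 1.94%, so this is not particular to the members. The single-exon members ran from 0.075 to 4.01 kb, with a median of 0.466 kb, and the other members had a median of 1.97 kb. The median exon length of all members was 1.83 kb, against 2.42 kb for all genes past the minimum, and 1.83 kb for the opposite pattern. Members had a median of 6 merged exons against 9. Short single-exon entries can share sequence with other copies in the genome, and the sources used here do not say how reads with several matches were counted. Libraries of 1 group also differed more in the single-exon members, with a median coefficient of variation of 15.7% within groups against 10.8% in the other members. Over all genes past the minimum it was 13.4% and 9.03%. The part of this spread in the share of single-exon genes was not tested.

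The members also lay in gene-poor surroundings. The median number of genes in the table within 500 kb on either side was 13 for the members, 19 for all genes past the minimum and 30 for the opposite pattern. At most 15 such neighbours were counted for 72 members (60.5%, Clopper-Pearson 95% interval 51.1 to 69.3%), where 40.2% of the genes past the minimum and 18% of the opposite pattern had so few. Among the 22 members that reached 1.5-fold in both cell types, 9 (40.9%) had so few, near the 40.2% of all genes past the minimum. By density, 1.69% of genes with at most 15 neighbours, 1.07% of those with 16 to 26 and 0.467% of those with at least 27 were members. For the opposite pattern the shares ran the other way, at 0.894%, 1.73% and 3.59%. The genes lower in both cell types resembled the members in this, with a median of 14 neighbours, and those higher in both had 24.

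**Figure D4:**
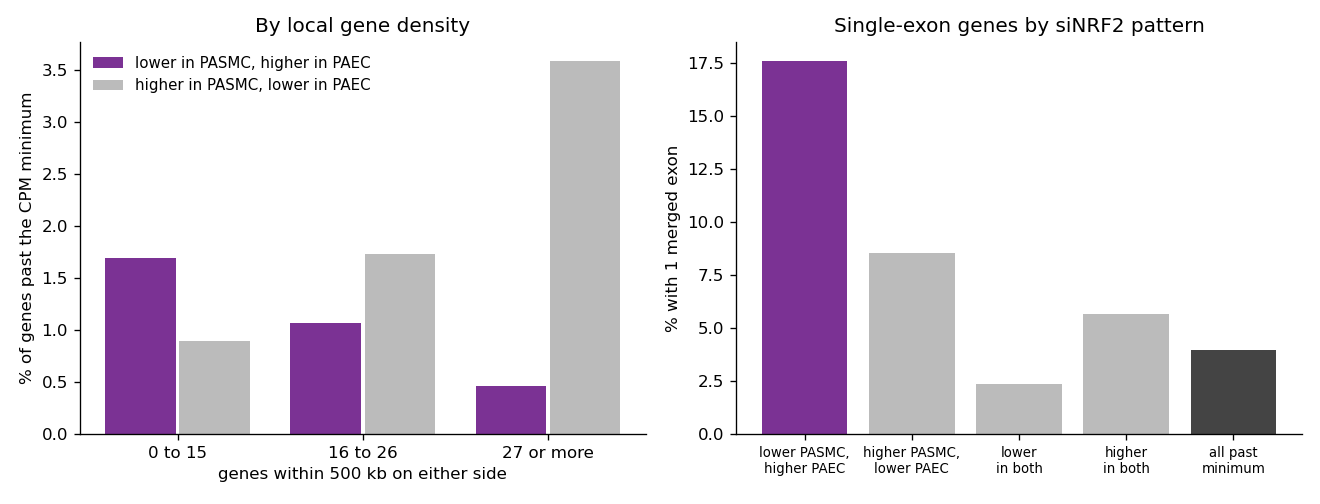
The left panel gives the percentage of genes past the CPM minimum that were members (purple) or had the opposite pattern (grey), in 3 classes of local gene density, and the right panel the percentage of genes with 1 merged exon in each siNRF2 pattern and among all genes past the minimum. Members become rarer from gene-poor to gene-rich surroundings (1.69 to 0.467%) while the opposite pattern becomes more common (0.894 to 3.59%), and single-exon genes are most frequent among the members (17.6%).

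The siNRF2 change varied with local gene density across all genes, as did the deviations of libraries from their cell type's mean. In PASMC the median fitted log2 change was -0.13 for genes with at most 15 neighbours and 0.20 for those with at least 27, and in PAEC it was 0.04 and -0.07. The slope of each library's log2 CPM on log2 gene density, relative to the mean of its cell type, was 0.090, 0.043 and 0.056 in PASMC siNRF2, against -0.061, -0.086 and -0.042 in PASMC siControl. It was -0.043, 0.001 and -0.023 in PAEC siNRF2, against 0.060, 0.033 and -0.028 in PAEC siControl. The slopes of the siRNAs did not overlap in PASMC and overlapped in PAEC.

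The level of the members moved against this slope, also within most groups. Members were more often in gene-poor surroundings than other genes, so part of this inverse order is built in. Summed counts of the 119 genes were 0.369, 0.412 and 0.399% of the library in PASMC siNRF2, against 0.584, 0.604 and 0.540% in PASMC siControl. They were 0.538, 0.534 and 0.522% in PAEC siNRF2, against 0.328, 0.369 and 0.420% in PAEC siControl. In 3 of the 4 groups the library with the higher median of members had the lower slope, in order through the 3 libraries, and the higher share of mitochondrial counts. That share was 1.47, 1.75 and 1.58% in PASMC siNRF2, against 2.94, 3.32 and 2.67% in PASMC siControl, and 4.79, 4.39 and 4.63% in PAEC siNRF2, against 3.22, 3.76 and 4.52% in PAEC siControl. With CPM by the total without mitochondrial genes, 134 genes met the rule, among them the 119. The exception was PAEC siNRF2, whose libraries differed little in the members. In PAEC siControl, replicate 3 was the highest of the 3 libraries in 79 of the 119 genes and replicate 1 the lowest in 81. Without PAEC siControl replicate 3, 208 genes met the rule, and without replicate 1, 90 did. The condition of no overlap is easier to meet with fewer libraries in a group.

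**Figure D5:**
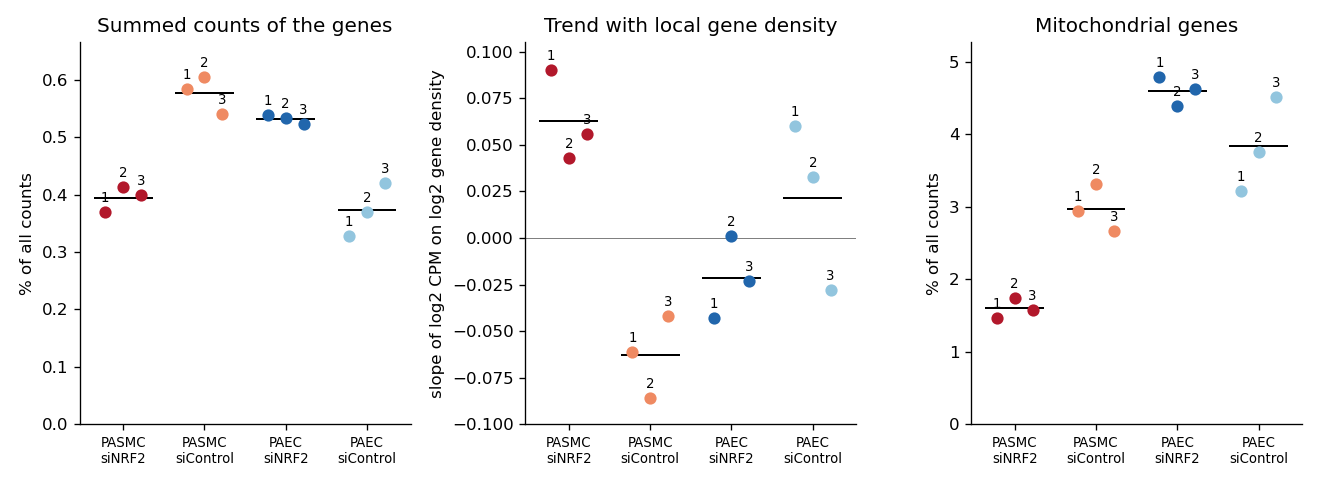
For each library (points, numbered by replicate, with the group mean as a line), the panels give the summed counts of the 119 genes as a percentage of all counts, the fitted slope against log2 gene density, and the mitochondrial genes as a percentage of all counts. In PAEC siControl the replicates 1 to 3 lie at 0.328, 0.369 and 0.420% in the left panel and at 0.060, 0.033 and -0.028 in the middle one.

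When each library's trend with gene density was removed, 112 genes met the rule, among them 80 of the 119 (67.2%). The trend is taken against the mean of the cell type, so it holds the part of the siNRF2 change that follows gene density. Removing it moves gene-poor members toward a ratio of 1, so a loss of gene-poor genes is in part built in. Nothing further is read from the density of the genes lost or kept. The members lost had a median of 9 neighbours and those kept 16.5. Of the 112 genes, 33.0% had at most 15 neighbours, below the 40.2% of all genes past the minimum, while 18.8% had 1 merged exon. The members' median ratio was then 0.723 in PASMC and 1.43 in PAEC. Of the 119, 41 met the rule with the trend removed, with TMM library sizes and without each library in turn. One of them, on chromosome 4 at 39517548 to 39535169, had 62, 74.6 and 68 CPM in PASMC siNRF2, against 110, 124 and 94.5 in PASMC siControl. Its PAEC values were 130, 110 and 120 CPM in siNRF2, against 61.1, 63 and 88.4 in siControl. The siRNAs were well apart in both cell types, by values that the rule used. Leaving out a library cannot bring about an overlap in a member, so only the ratio limits and the minimum could fail there.

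The genes next to the members were not chosen by the rule. On each side, the nearest gene past the minimum was taken, leaving out members and genes that overlap the member, which gave 212 genes. In PASMC, 59 of them (27.8%) were called lower and 17 (8.02%) higher (edgeR, adjusted p under 0.05), where 14.6% and 16.1% of all genes tested and 18.1% and 21% of those past the minimum were. In PAEC, 40 (18.9%) were called higher and 20 (9.43%) lower, where 11.5% and 13.2% of all genes tested and 14.2% and 16.3% of those past the minimum were. Their median fitted log2 change was -0.13 (PASMC) and 0.08 (PAEC). With at most 15 genes around them, 34.9% of 129 such neighbours were called lower in PASMC, against 28.2% of all genes in such surroundings. With 16 or more, it was 16.9% of 83 against 11.3%. With the density trend as an offset in the fit, 23.1% of the neighbours were called lower in PASMC and 18.4% higher in PAEC, against 17.1% and 15.5% of all genes past the minimum. The share called lower in PASMC was 18.9% without PASMC siNRF2 replicate 1, against 12.3% of genes past the minimum, and also 18.9% without PASMC siControl replicate 2, against 12.7%. The share called higher in PAEC was 13.7% without PAEC siControl replicate 1, against 10.9%. The opposite pattern had 360 neighbours taken in the same way, and in PASMC these moved with it, 29.2% called higher and 8.06% lower. In PAEC they were near the background, with 12.2% called higher and 17.5% lower. Their median log2 changes were 0.16 (PASMC) and -0.02 (PAEC). With density left aside, neighbours that move with their set in PASMC are thus not particular to the members. However, the neighbours of the opposite pattern had a median of 27 genes around them. Of all genes with 16 or more nearby, 27.7% were called higher and 11.3% lower in PASMC, close to their shares. These neighbours were not split by density, so whether they moved beyond their surroundings was not tested.

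Overlaps with other genes were about as frequent among the members as elsewhere. The span of 9 members (7.56%) overlapped a gene on the same strand and that of 19 (16%) a gene on the other strand, where 9.01% and 14.8% of the genes past the minimum did, and 94 overlapped none.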

How the data were processed

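The submitters' processing notes name HISAT2 (2.0.5), featureCounts (2.0.3) and, at version 1.32.0, DESeq2, without their roles. The authors deposited raw counts by gene, in whole numbers, beside exon positions and lengths. Build and strand setting: not given in the sources used here. Per the labels' protocols, a directional library kit was used. Samples were grouped by their titles.

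The members, lists and questions were chosen with earlier results of these data known. CPM is the count per 1000000 counts of the column. Genes were kept with filterByExpr (14584 genes), scaled by TMM and fitted over the 12 libraries with 1 coefficient per group (edgeR 4.0.16 quasi-likelihood, R 4.3.3), with Benjamini-Hochberg adjustment over all genes. Alternatives used limma 3.58.1 (voom) and DESeq2 1.42.0. The steps were tested on simulated data. Intervals of shares are Clopper-Pearson and treat genes as independent. Local gene density is the number of genes of the table with midpoints within 500 kb on either side. Its lowess trend per library, against its cell type's mean, was removed as an alternative. Without symbols, the 4 genes with the largest smaller change of the cell types are given by ID, and other genes by position were chosen after their values were seen, apart from those nearest the limits. Gene lists, markers and promoter motifs, which need symbols, were not run.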

Additional observations from a re-analysis of the deposited data

How the results depend on the processing

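Replicate numbers did not pair the libraries: deviations of same-numbered siNRF2 and siControl libraries correlated at -0.058 to 0.013, and 0 of 6 siNRF2 libraries correlated best with their own number. With the number as a replicate block, 45 members were higher and 36 lower in PAEC than in PASMC (30.3% and 32.1% of all genes tested), 90 were called lower with siNRF2 in PASMC (14.0%) and 97 higher in PAEC (11%). With library totals, 22 members were higher and 68 lower in PAEC than in PASMC (15.4% and 59.3% of all genes tested). Without single libraries, by TMM, 39 to 46 members were higher and 31 to 38 lower in PAEC than in PASMC (28.4 to 29.7% and 30.6 to 32.7% of all genes tested), 57 to 101 were called lower with siNRF2 in PASMC (9.59 to 15.7%) and 74 to 102 higher in PAEC (7.57 to 11.8%). The number of genes that met the rule ran from 90 (without PAEC siControl replicate 1) to 208 (without PAEC siControl replicate 3). It was 124 by TMM library sizes (96 of the 119 shared), 22 with limits of 0.67 and 1.5, and 1 with limits of 0.5 and 2. Without each library in turn, with TMM and with the density trend removed, 41 of the 119 met the rule every time, among them 2 of the 4 genes given by ID. Leaving out a library cannot bring about an overlap in a member, and makes no overlap easier to meet in other genes. As settings added after the data were seen, the share with 1 merged exon ran from 13.0 to 19.2% and the share with at most 15 genes nearby from 57.6 to 63.2% without single libraries. With a minimum mean of 5 CPM, 96 genes met the rule, of which 12 (12.5%) had 1 merged exon and 65.6% at most 15 genes nearby. The single-exon share was thus lower without the genes of low level. With limits of 0.67 and 1.5 the shares were 45.5% and 40.9% (3.95% and 40.2% of genes past the minimum). With the density trend removed the share with at most 15 genes nearby was 33.0%, a fall that is in part built into that step. Fits of the 4 genes given by ID lost a call in 20 cases, gained one in 7 and did neither in 208. One value reversed: the cell type difference of ENSRNOG00000031127 was -0.14 with library totals, against 0.30, with neither called. The causes were not tested. Counts under 100 in at least 1 library limit the precision for 21 members.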

Other observations

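The members were spread over 19 of the 20 chromosomes. Chromosome 17 had 6 members among 285 genes past the minimum (2.11%), chromosome 2 had 13 among 698 (1.86%) and chromosome 13 had 6 among 335 (1.79%). Chromosome 19 had 0 among 328 and chromosome 20 had 1 among 340 (0.294%), where the opposite pattern had 24 (7.06%). The median number of genes nearby was 12 on chromosomes 2 and 17 and 24 on chromosome 20. These shares were looked at after the data were seen and were not tested.

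Members were next to each other, with no other gene past the minimum between them, at 2 places. On chromosome 1, 3 members lay in a row, at 62112797 to 62114672 (minus strand, 1 merged exon), 62133816 to 62174310 (plus strand) and 62314276 to 62316450 (minus strand, 1 merged exon). The last of these had 4.73, 7.81 and 7.06 CPM in PASMC siNRF2, against 11.1, 10.9 and 8.32 in PASMC siControl. In PAEC it had 10.4, 7.10 and 8.07 CPM in siNRF2, against 3.67, 3.5 and 5.42 in siControl. On chromosome 9, a pair on the plus strand lay at 66888393 to 66926377 and 66952720 to 67110693. The second of the pair, with 65 merged exons, averaged 17.4 ± 3.04 CPM in PASMC siNRF2 and 23.7 ± 1.47 in PASMC siControl, and 25.9 ± 2.12 CPM in PAEC siNRF2 and 19.5 ± 2.68 in PAEC siControl (mean ± SD, n = 3 each). None of these genes overlapped another gene of the table.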
